A study of Mus musculus with 68 samples.

Results

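The genes described here are those of the mouse MHC class I pathway, classical and nonclassical, in the lungs of male wild-type C57BL/6J and CAST/EiJ mice. Members were the table entries whose symbol began with H2-K, H2-D1, H2-L, H2-Q, H2-T, H2-M or H2-Bl, together with B2m, Tap1, Tap2, Tapbp, Psmb8, Psmb9 and Nlrc5. The rule found 41 of 23893 entries. H2-Ke2 and H2-Ke6 match by their first letters only. They encode a prefoldin subunit and a hydroxysteroid dehydrogenase, and 39 members belong to the class I pathway itself. The 4 groups were C57BL/6J in clean air (5 RNA-seq libraries), C57BL/6J under 1,3-butadiene (BD, 6 libraries), CAST/EiJ in clean air (7) and CAST/EiJ under BD (6). BD is an industrial gas and combustion product that was inhaled 6 h a day on weekdays over 2 weeks. Library totals ran from 10597990 to 50001571 counts, and levels are given as counts per 1000000 (CPM), which serve to compare libraries for 1 gene and not genes with each other. The labels do not tie each library to its own mouse, so the p-values measure only the spread between these samples, which may be technical.

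Class I molecules are heavy chains that pair with beta-2-microglobulin (B2m) and show short peptides from inside the cell to CD8 T cells. The peptides are cut by the proteasome, whose interferon-induced subunits include Psmb8 and Psmb9, carried into the endoplasmic reticulum by the transporter Tap1/Tap2, and loaded with the help of tapasin (Tapbp). H2-K and H2-D are the classical, highly polymorphic heavy chains, and the Q, T and M regions hold the nonclassical ones, several of which are ligands of natural killer (NK) or gamma-delta T cells. Nlrc5 is the transactivator of the class I promoters, and interferons raise most genes of the pathway. In the lung the pathway is active in endothelium, epithelium and leukocytes.

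Because interferon response and enhancer elements are the textbook switches of this family, the promoters of the members were read from RefSeq (GRCm38.p6, 250 bases before to 50 after each gene's start), where 28 members had an entry. The interferon-type repeats GAANNGAAA and a longer form (GAAA, any 2 bases, GAAA) were searched on both strands, with overlaps allowed, and so was GGGATTCCC, the core of the class I enhancer A. The shorter repeat was present in 8 member promoters and in 7.52% of all 32851 promoters, the longer one in 3 and in 3.44%, and either of them in 11 and in 10.4%. GGGATTCCC was present in H2-D1, H2-K1, H2-Q6 and H2-Q7 and in 0.353% of all promoters. The windows below show these elements in capitals, 5′ to 3′ on the gene's strand, for the light chain and 6 of the heavy chains whose levels are given further on. The H2-K1, H2-D1, H2-Q6 and H2-Q7 windows share nearly the same arrangement, with the repeat shortly after the enhancer core. H2-Q4, and H2-M3, which is not shown, hold the shorter repeat without the core. The B2m and H2-T22 windows, and that of H2-T23, not shown, hold the longer repeat without that core.
H2-K1 (chr17:34000414-34000467, minus strand): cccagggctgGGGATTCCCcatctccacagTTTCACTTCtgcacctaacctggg
H2-D1 (chr17:35262914-35262967, plus strand): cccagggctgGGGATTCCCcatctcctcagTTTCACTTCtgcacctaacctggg
H2-Q4 (chr17:35379434-35379487, plus strand): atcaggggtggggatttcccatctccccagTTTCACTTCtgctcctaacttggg
H2-Q6 (chr17:35424668-35424721, plus strand): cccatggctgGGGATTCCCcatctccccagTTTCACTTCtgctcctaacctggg
H2-Q7 (chr17:35439012-35439065, plus strand): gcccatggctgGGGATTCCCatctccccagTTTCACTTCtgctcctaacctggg
B2m (chr2:122147518-122147572, plus strand): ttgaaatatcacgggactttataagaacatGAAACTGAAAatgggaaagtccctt
H2-T22 (chr17:36042909-36042963, minus strand): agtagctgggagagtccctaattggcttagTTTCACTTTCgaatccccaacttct
All of these windows lie upstream of the start. The H2-Q2 promoter held neither repeat and no enhancer core in its 300 bases, as was so for most of the 28 member promoters. These are matches of letters in a C57BL/6J reference, and nothing was measured at them.

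Of the 41 members, 31 passed the filter on low counts. The other 10 were H2-M1, H2-M10.1 to H2-M10.6, H2-M11, H2-M9 and H2-T3, with at most 26 counts in any library (H2-M10.2). Some entries are not separate measurements. H2-Q6 and H2-Q8 held identical counts in every library, as did H2-Q7 and H2-Q9, and the count of H2-T22 was between 0.982 and 1.01 times that of H2-T9. The 31 tested entries therefore held at most 29 distinct ones. H2-L, which the C57BL/6J haplotype is known to lack, followed H2-D1 at a count ratio (H2-D1 over H2-L) between 1.28 and 1.69, so that its values cannot be told apart from reads of near-identical heavy chains. H2-K2, H2-Bl, H2-Q5 and H2-T10 are annotated as transcribed pseudogenes in RefSeq.

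A single library has to be named before the comparisons. It is replicate 5 of CAST/EiJ under BD by its label, has the title number 8, and went against its strain label. H2-Ea-ps, a class II gene that C57BL/6J mice are known not to transcribe, was at 0 CPM in it, between 0 and 0.0766 CPM in the C57BL/6J BD libraries and between 72.8 and 116 CPM in the other 5 CAST/EiJ BD libraries. Of the 31 tested members 22 lay within the range of the C57BL/6J BD libraries in this library, and 9 lay outside the ranges of both strains. Among the 22, Tapbp, H2-Q10 and H2-M2 also lay within the range of the other CAST/EiJ BD libraries. These counts include H2-Q8, H2-Q9 and H2-T9, which repeat other entries. Nlrc5 was at 55.1 CPM there, against 7.82 to 15.6 CPM in the other 5 of its group and 30.5 to 56.2 CPM in C57BL/6J BD. H2-Q1 (56 CPM) and H2-Q2 (46.7 CPM) were higher in it than in any of the other 23 libraries, above both strains. B2m (759 CPM) and H2-Q4 (149 CPM) were also above both BD ranges, and H2-Bl (3.13 CPM) lay between them. The library stays under its label, and for each comparison the count of members that passed is given with it and without it. Values of single genes are not all given both ways.

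**Figure D1:**
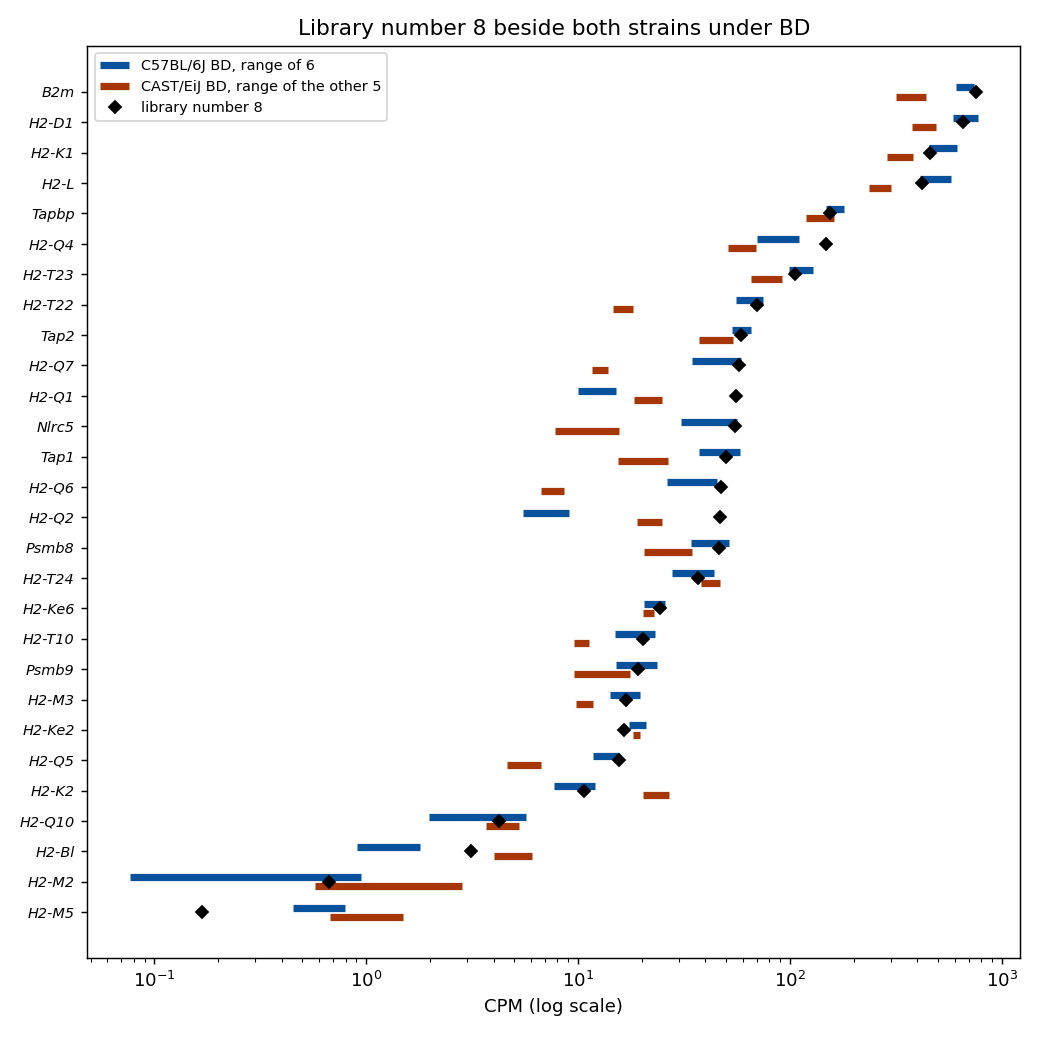
CPM on a log axis of 28 tested members under BD (H2-Q8, H2-Q9 and H2-T9, which repeat other entries, are left out). Blue bars span the 6 C57BL/6J BD libraries, brown bars the other 5 CAST/EiJ BD libraries, and black diamonds mark library number 8, which sits on the blue bars for most genes and beyond both bars for H2-Q1 (56 CPM) and H2-Q2 (46.7 CPM).

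To determine how the strains differ without exposure, 7 clean-air CAST/EiJ libraries were compared with 5 clean-air C57BL/6J libraries. Most class I genes were lower in CAST/EiJ: 21 of 31 tested members were lower and 5 higher at a Benjamini-Hochberg adjusted p under 0.05 (edgeR quasi-likelihood test). The 21 include H2-Q8, H2-Q9 and H2-T9, which repeat other entries, and H2-L, which cannot be told apart from near-identical heavy chains. The 5 include H2-Ke2, which is not a class I gene. Over all 17371 genes 30.4% were lower and 28.9% higher. The median log2 fold was -0.55 over the tested members and -0.001 over all genes. The same counts, 21 and 5, were obtained without number 8 (31% of all genes lower and 29.4% higher). Lower genes came from every step of the pathway, and those with the largest fold were the transactivator Nlrc5, the Q6 to Q9 heavy chains, H2-T22 and Tap1.

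Among the classical heavy chains, H2-K1 was measured at 529, 569, 523, 715 and 785 CPM in clean-air C57BL/6J and at 326 to 501 CPM (median 421, n = 7) in clean-air CAST/EiJ, with no overlap. H2-K1 was 1.47-fold lower in CAST/EiJ (log2 fold -0.56, SE 0.13, edgeR adjusted p = 0.000559). H2-D1 was at 672, 697, 544, 907 and 984 CPM in C57BL/6J and at 428 to 645 CPM (median 521, n = 7) in CAST/EiJ, and was 1.42-fold lower (edgeR adjusted p = 0.00364), although the ranges overlapped. H2-L was 1.66-fold lower. The light chain B2m was at 730, 608, 583, 829 and 1078 CPM in C57BL/6J and at 408 to 753 CPM (median 474, n = 7) in CAST/EiJ. Its highest CAST/EiJ value came from number 1, and the other 6 libraries (408 to 505 CPM) lay below all of C57BL/6J. B2m was 1.52-fold lower (log2 fold -0.61, SE 0.18, edgeR adjusted p = 0.00619).

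Nlrc5 showed the widest gap of the genes that act on the heavy chains. It was at 68.6, 68.9, 60.5, 79.7 and 60.8 CPM in clean-air C57BL/6J. In clean-air CAST/EiJ it was at 37.6 CPM in number 1 and at 8.13 to 13.4 CPM in the other 6 libraries. Nlrc5 was 4.65-fold lower in CAST/EiJ (log2 fold -2.22, SE 0.42, edgeR adjusted p = 0.000151), and 6.32-fold lower without number 1. Tap1 was at 63.6, 68.2, 62.7, 81.2 and 71.1 CPM in C57BL/6J and at 16.6 to 42.7 CPM (median 23, n = 7) in CAST/EiJ, 2.76-fold lower (edgeR adjusted p = 1.22e-05). Its partner Tap2 was 1.42-fold lower and tapasin (Tapbp) 1.26-fold lower. The immunoproteasome subunits Psmb8 (1.54-fold) and Psmb9 (1.32-fold, adjusted p = 0.0461) were lower. The call of Psmb9 ended on leaving out any of 14 single libraries (edgeR adjusted p from 0.00778 to 0.548 over 35 alternatives).

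The nonclassical genes split in both directions. H2-Q7, which encodes a Qa-2 heavy chain, was at 56.8, 74.1, 41.4, 92 and 89.2 CPM in clean-air C57BL/6J and at 14 to 22.6 CPM (median 19.7, n = 7) in CAST/EiJ, 3.78-fold lower (log2 fold -1.92, SE 0.33, edgeR adjusted p = 4.34e-05). H2-Q6 was 4.83-fold lower, H2-Q5 2.29-fold and H2-Q4 1.72-fold. H2-T22, a ligand of gamma-delta T cells, was at 62.9, 63.2, 55.2, 68.7 and 80.4 CPM in C57BL/6J and at 13.8 to 34.7 CPM (median 16.4, n = 7) in CAST/EiJ. Here too the highest CAST/EiJ value was that of number 1, and the next was 18.9 CPM. H2-T22 was 3.51-fold lower (edgeR adjusted p = 5.85e-05) and H2-T10 1.62-fold. H2-T23, which encodes the Qa-1 ligand of the NK receptor CD94/NKG2A, was 1.32-fold lower (adjusted p = 0.0206), a call that ended without any 1 of C57BL/6J clean-air replicates 1 and 5 and CAST/EiJ clean-air replicate 7. H2-M3, which presents formylated bacterial and mitochondrial peptides, was 1.46-fold lower (edgeR adjusted p = 0.000485).

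Against this direction H2-Q2 was at 4.95, 7.26, 6.16, 8.46 and 8.37 CPM in clean-air C57BL/6J and at 21.5 to 37.9 CPM (median 29.4, n = 7) in CAST/EiJ. It was 4.32-fold higher in CAST/EiJ (log2 fold 2.11, SE 0.21, edgeR adjusted p = 1.86e-07), without overlap. Its neighbour H2-Q1 was at 8.1, 13.1, 9.85, 13.6 and 15.1 CPM in C57BL/6J and at 22.1 to 36.7 CPM (median 32.7, n = 7) in CAST/EiJ, 2.58-fold higher (edgeR adjusted p = 5.77e-05). The pseudogenes H2-K2 (2.39-fold) and H2-Bl (4.99-fold) were higher as well, H2-K2 from 11.7 ± 1.87 CPM (SD, n = 5) to 28 ± 3.21 CPM (SD, n = 7). The other higher entry was H2-Ke2, the prefoldin subunit (1.19-fold), whose call ended without C57BL/6J clean-air replicate 4 or 5. The other tested members did not pass: H2-Ke6, H2-M2, H2-M5, H2-Q10 and H2-T24, with log2 folds from -0.01 to 0.65.

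**Figure D2:**
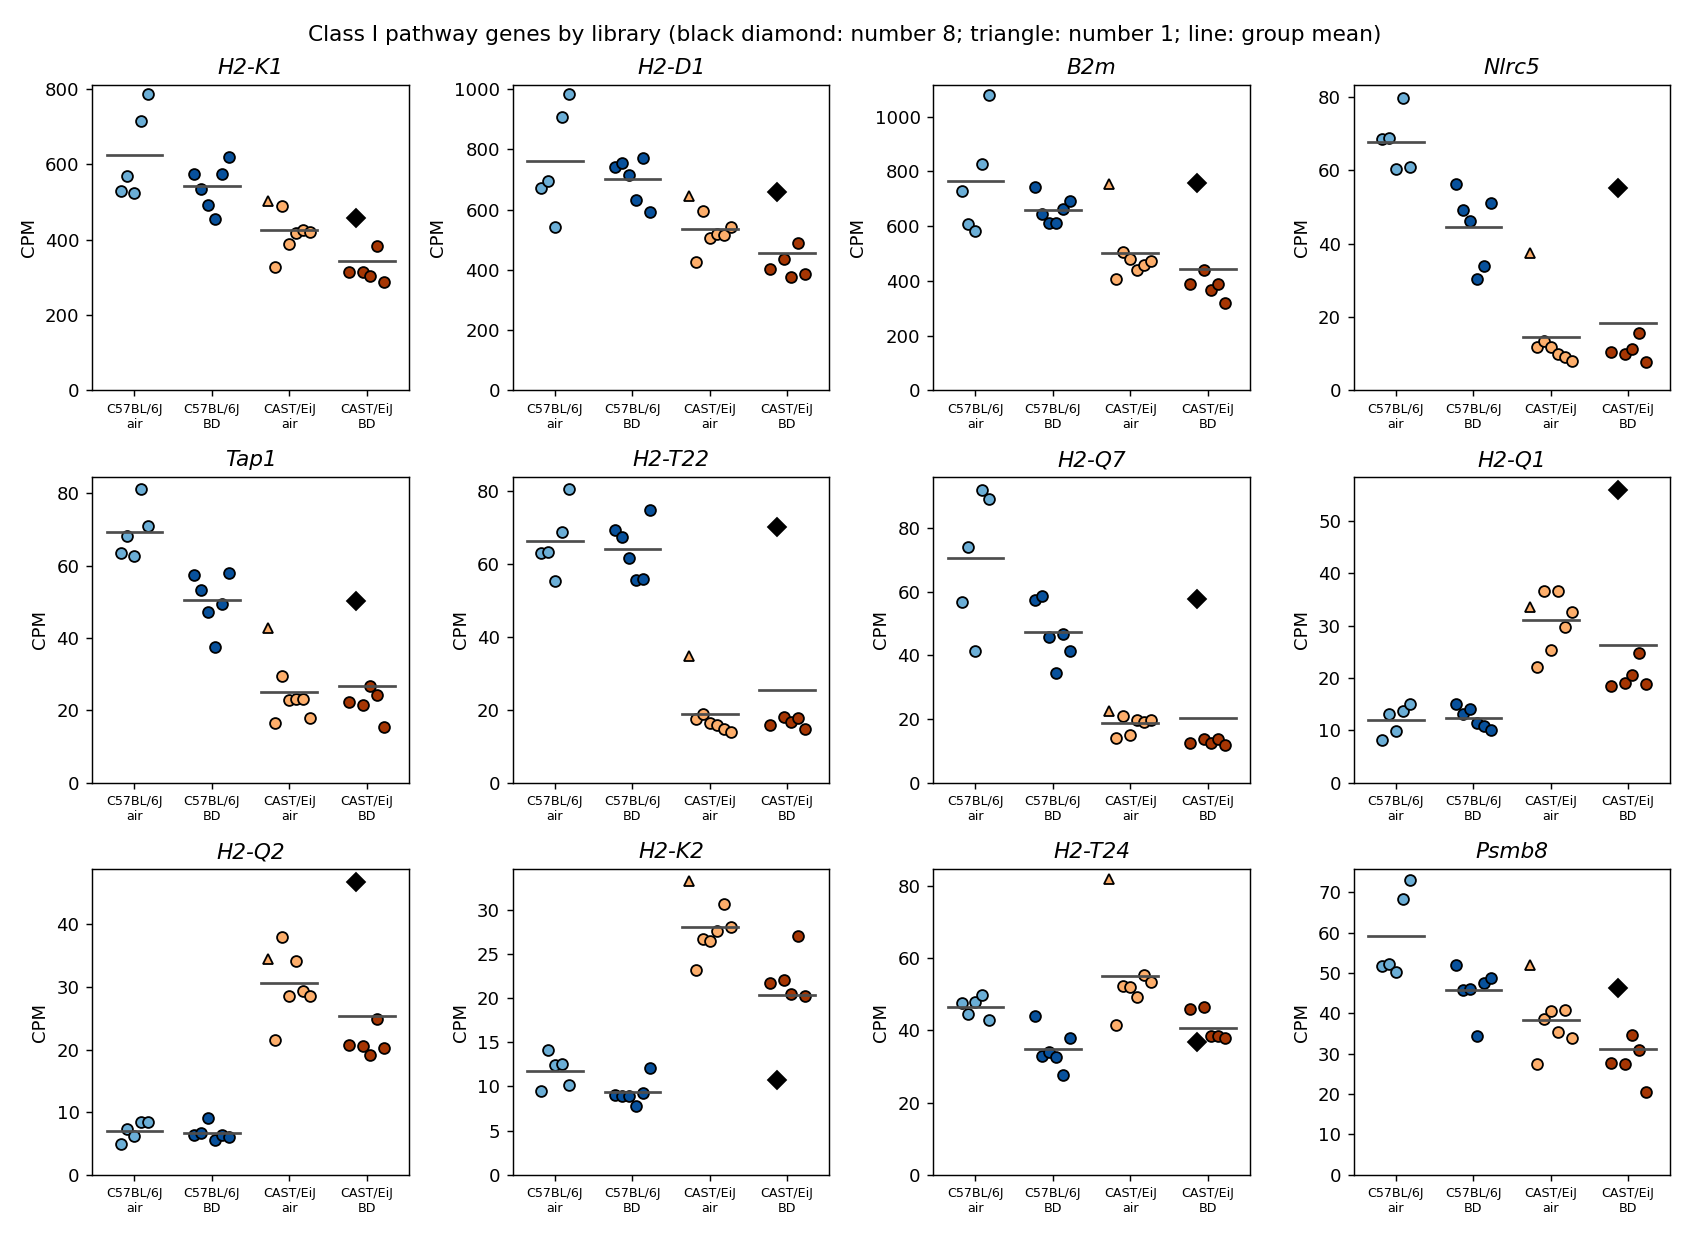
CPM of 12 members in each of the 24 libraries, by strain and exposure, on linear axes from 0. Circles are libraries, the triangle is CAST/EiJ clean-air number 1, the black diamond is CAST/EiJ BD number 8 and lines are group means. Nlrc5, Tap1, H2-T22 and H2-Q7 sit lower in CAST/EiJ and H2-K2 higher, except in number 8. In number 1, Nlrc5 (37.6 CPM) and Tap1 (42.7 CPM) also fall within the range of the C57BL/6J BD libraries. H2-Q1 and H2-Q2 sit higher in CAST/EiJ, and highest in number 8.

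**Figure D3:**
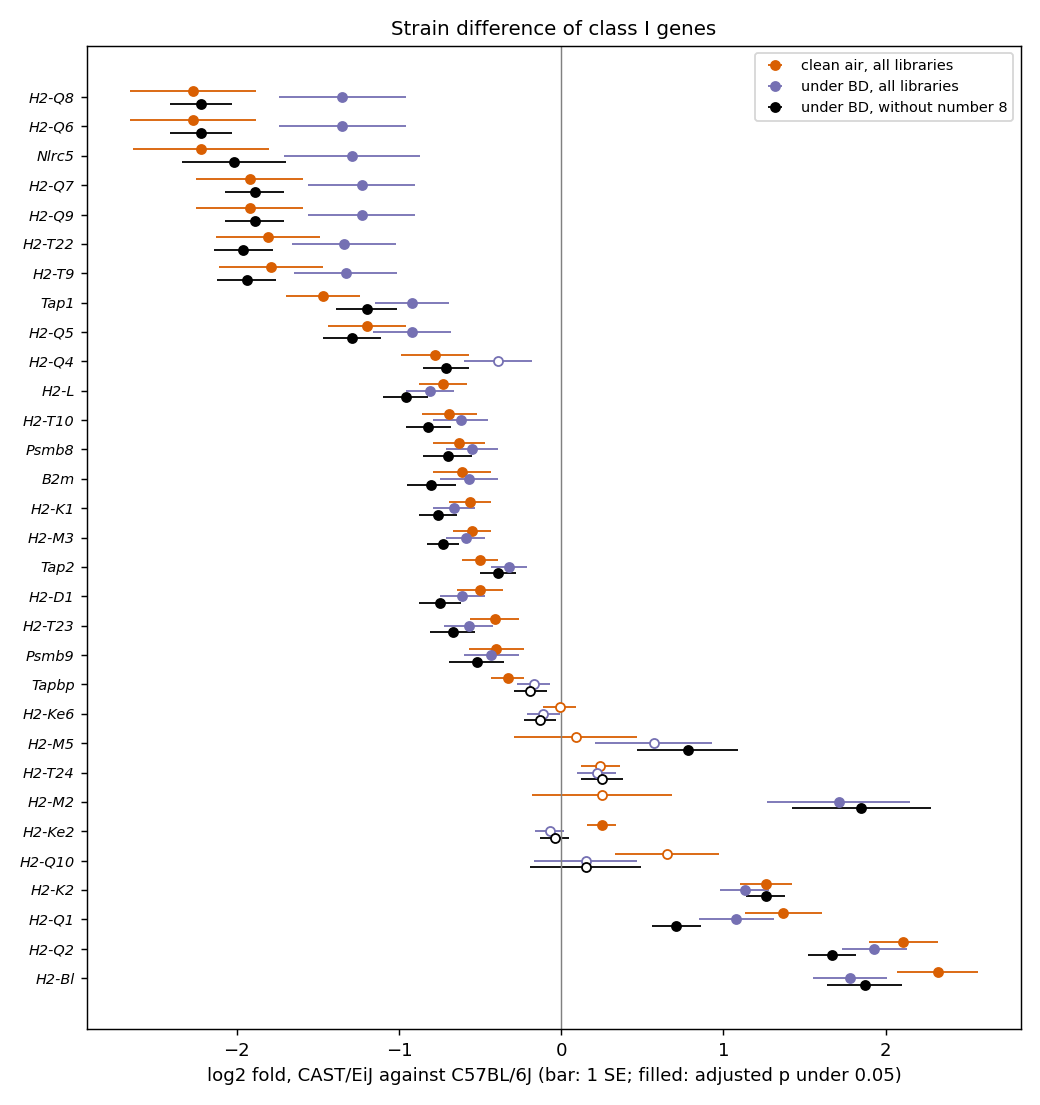
Log2 fold of CAST/EiJ against C57BL/6J for the 31 tested members, with bars of 1 SE and filled points at adjusted p under 0.05. Orange is clean air, violet is BD with all libraries and black is BD without number 8. Genes that passed both in air and under BD lie on the same side of 0, from H2-Q6 (-2.27 in clean air) to H2-Bl (2.32).

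The title numbers over 100 belong to 5 of the 7 clean-air CAST/EiJ libraries and 1 of the 5 clean-air C57BL/6J libraries, and to no BD library. Without them and without number 8, 32 members were tested, 15 were lower in clean-air CAST/EiJ and 5 higher (22.1% of all genes lower and 21.7% higher). That comparison rests on 2 CAST/EiJ libraries, numbers 1 and 2, of which number 1 is the one that stood high. Nlrc5 was then 2.8-fold lower (adjusted p = 0.00496), Tap1 2.32-fold, H2-T22 2.39-fold and H2-Q7 3.61-fold, and H2-Q2 4.15-fold higher. B2m (-0.24 on the log2 scale, edgeR adjusted p = 0.307), H2-D1 (-0.40, 0.0891) and Psmb8 (-0.49, 0.0991) did not pass.

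The reads of both strains were aligned to mm9, a C57BL/6J genome, and the class I heavy chains are polymorphic and near-identical to each other. A CAST/EiJ read that fails to align, or aligns to another heavy chain, cannot be told apart from a strain difference in these counts, and the size of that effect was not tested. It bears on the heavy chains in both directions, H2-Q1, H2-Q2, H2-K2 and H2-Bl included. Lower levels were also measured for Nlrc5 on chromosome 8 and B2m on chromosome 2, outside the H2 region. The same held for Tap1, Tap2, Tapbp, Psmb8 and Psmb9 on chromosome 17, which encode no heavy chain. CAST/EiJ reads of all these genes were aligned to the same C57BL/6J genome, and their loss was not tested either. Comparisons of BD with clean air are between libraries of 1 labelled strain, but in CAST/EiJ this includes number 8, so that only the values without it are free of that mismatch.

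Under BD every member that had also passed in clean air and passed again was on the same side, with number 8 and without it. With all libraries 19 members were lower in CAST/EiJ and 5 higher (17.5% and 17.2% of all genes), with a median log2 fold of -0.57. Among the lower members were again the repeats H2-Q8, H2-Q9 and H2-T9. Without number 8, 20 were lower and 6 higher (22.3% and 20.4%), with a median of -0.71. In this comparison Nlrc5 was 2.44-fold lower with number 8 (edgeR adjusted p = 0.0221) and 4.06-fold without it (2.73e-05). The call of Nlrc5 with all libraries also ended on leaving out CAST/EiJ BD replicate 3, 4 or 6 (highest adjusted p 0.054). Number 8 moved H2-Q6 from 4.65-fold lower without it to 2.54-fold with it, H2-Q7 from 3.7-fold to 2.35-fold and H2-T22 from 3.89-fold to 2.53-fold. H2-Q4 passed only without it (1.64-fold lower, edgeR adjusted p = 0.000227). H2-Q1 was 2.11-fold higher with it and 1.64-fold without. H2-M2, present at 0.469 ± 0.339 CPM (SD, n = 6) in C57BL/6J BD and 1.77 ± 0.851 CPM (SD, n = 5) in CAST/EiJ BD without number 8, was 3.62-fold higher (edgeR adjusted p = 0.00106), and 3.26-fold with all libraries. Its ranges overlapped, at 0.0766 to 0.942 CPM in C57BL/6J BD and 0.573 to 2.84 CPM in CAST/EiJ BD without number 8. The gene is near the floor, with as few as 1 count in a library. H2-M5 passed only without number 8 (1.72-fold higher, adjusted p = 0.0427). The call of Tap2 ended without C57BL/6J BD replicate 2 or CAST/EiJ BD replicate 3 or 4, and that of Psmb9 without any of 15 single libraries.

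To determine how BD acts on the pathway in C57BL/6J, the 6 exposed libraries were set against the 5 unexposed ones. With all libraries in the model 1 member fell and none rose, where 4.66% of all genes fell and 2.82% rose (edgeR quasi-likelihood, Benjamini-Hochberg). An unadjusted p under 0.05 was reached by 9 members, but the share of all genes at that threshold is not given, so this count has no background. The member that fell was the nonclassical H2-T24, at 47.6, 44.6, 47.8, 49.8 and 43 CPM in clean air and at 27.7 to 43.9 CPM (median 33.3, n = 6) under BD. The ranges overlapped through BD number 13. H2-T24 fell 1.34-fold (log2 fold -0.42, SE 0.13, edgeR adjusted p = 0.0446), and the call ended in 17 of 35 alternatives, 15 of them the loss of a single library. The estimates of 29 of 31 members were below 0, with a median log2 fold of -0.25 against -0.002 over all genes.

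Number 8, although not part of this comparison, widened the spread that the model shares between groups. Without it 7 members fell in C57BL/6J and none rose (6.49% of all genes fell and 4.2% rose). Of the 7, 6 were Q-region entries, with the copies H2-Q8 and H2-Q9 counted among them. H2-Q6 fell 1.56-fold (log2 fold -0.65, SE 0.17, edgeR adjusted p = 0.0193, against SE 0.39 and adjusted p = 0.373 with all libraries). It was at 48.5, 61.9, 33.7, 72.5 and 68.7 CPM in clean air and at 26.2 to 45.4 CPM (median 35.4, n = 6) under BD, with overlap through clean-air number 5. H2-Q7 fell 1.49-fold (adjusted p = 0.027), H2-Q5 1.49-fold (0.0311) and H2-Q4 1.41-fold (0.0229). H2-K1 (log2 fold -0.21, adjusted p = 0.289), H2-D1 (-0.12, 0.631), B2m (-0.21, 0.398), Tap1 (-0.46, 0.107), Psmb8 (-0.37, 0.101), Psmb9 (-0.37, 0.164) and Nlrc5 (-0.60, 0.215) did not pass without number 8. The mean of Nlrc5 was 67.7 ± 7.84 CPM (SD, n = 5) without exposure and 44.5 ± 10.1 CPM (SD, n = 6) under BD, with all 6 BD libraries (30.5 to 56.2 CPM) below all clean-air libraries. It passed where the C57BL/6J libraries alone were fitted (edgeR adjusted p = 0.0169) and where number 1 was left out along with number 8 (0.0181), as did Tap1 (0.0122 and 0.0308). Without the numbers over 100 and number 8, H2-T24 fell, H2-Ke2 rose 1.24-fold and no Q-region entry passed (9.24% of all genes fell and 7.72% rose), with H2-Q6 at -0.57 (edgeR adjusted p = 0.0525).

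In CAST/EiJ the same exposure gave 3 lower members and no higher one with all libraries (6.36% of all genes fell and 7.4% rose). They were H2-K2 (1.37-fold), H2-Q10 (2.01-fold) and H2-T24 (1.36-fold). Without number 8, 8 members fell and none rose (3.37% and 3.86%), and the median log2 fold of the tested members moved from -0.18 to -0.41, against -0.018 over all genes. DESeq2 without number 8 called 19 lower (6.65% of all genes fell), and the edgeR fit without number 8 and clean-air C57BL/6J replicate 1 called 15 (5.35%). The 8 were H2-K1, H2-M3, H2-Q1, H2-Q2, H2-Q5, H2-Q6 with its copy H2-Q8, and H2-T24. Of the 3 called with all libraries, H2-T24 alone also passed without number 8.

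H2-K1 was at 326 to 501 CPM (median 421, n = 7) in clean-air CAST/EiJ and at 315, 314, 303, 383 and 288 CPM in the 5 BD libraries other than number 8. It fell 1.32-fold (log2 fold -0.40, SE 0.11, edgeR adjusted p = 0.0369) and with all libraries did not pass (0.0866). H2-M3 fell 1.38-fold (adjusted p = 0.0105). H2-Q1 was at 22.1 to 36.7 CPM in clean air and at 18.4, 19.1, 20.6, 24.8 and 18.8 CPM under BD without number 8, a fall of 1.52-fold (adjusted p = 0.0219), and H2-Q2 fell 1.46-fold (0.026). H2-Q5 fell 1.59-fold (edgeR adjusted p = 0.0284) and H2-T24 1.33-fold (0.0446). H2-Q6 was at 8 to 15.6 CPM (median 11.9, n = 7) in clean air and at 8.2, 7.69, 8.62, 8.16 and 6.71 CPM under BD. It fell 1.51-fold (log2 fold -0.59, adjusted p = 0.0492). With number 8, where H2-Q6 was at 47.5 CPM, the estimate was 0.28 and did not pass (edgeR adjusted p = 0.641). B2m (-0.40, adjusted p = 0.0742), Psmb8 (-0.44, 0.0554), Psmb9 (-0.50, 0.061), Nlrc5 (-0.41, 0.394) and Tap1 (-0.20, 0.496) did not pass without number 8. Nlrc5 was at 11 ± 2.9 CPM (SD, n = 5) under BD without number 8, and at 10.7 ± 2 CPM (SD, n = 6) in clean air without number 1.

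H2-Q10, a secreted heavy chain made chiefly by the liver, was at 6.95, 21.3, 9.33, 5.49, 6.51, 5.8 and 4.69 CPM in clean-air CAST/EiJ. The 21.3 CPM came from number 2, in which 6 hepatocyte markers summed to 1500 CPM, against at most 131 CPM in the other clean-air CAST/EiJ libraries. The call of H2-Q10 with all libraries (edgeR adjusted p = 0.034) ended without number 2, without number 8 (0.0604) and without any of 5 other libraries. The part of hepatocyte RNA in that call was not tested. The count of lower members in CAST/EiJ was 7 without number 2 (8.33% of all genes fell). It was 1 without BD replicate 1 (4.24%), 3 (6.67%) or 4 (5.07%) or clean-air replicate 1 (3.26%). Without the numbers over 100 and number 8, H2-Q10 and H2-T9 fell and none rose (3.03% of all genes fell and 0.501% rose). Clean air was then numbers 1 and 2 only, at 35.4 and 17.8 CPM for H2-T9 and at 6.95 and 21.3 CPM for H2-Q10. Each call thus had 1 high library behind it. H2-T22, which nearly repeats H2-T9, did not pass, nor did any member called without number 8 alone.

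**Figure D4:**
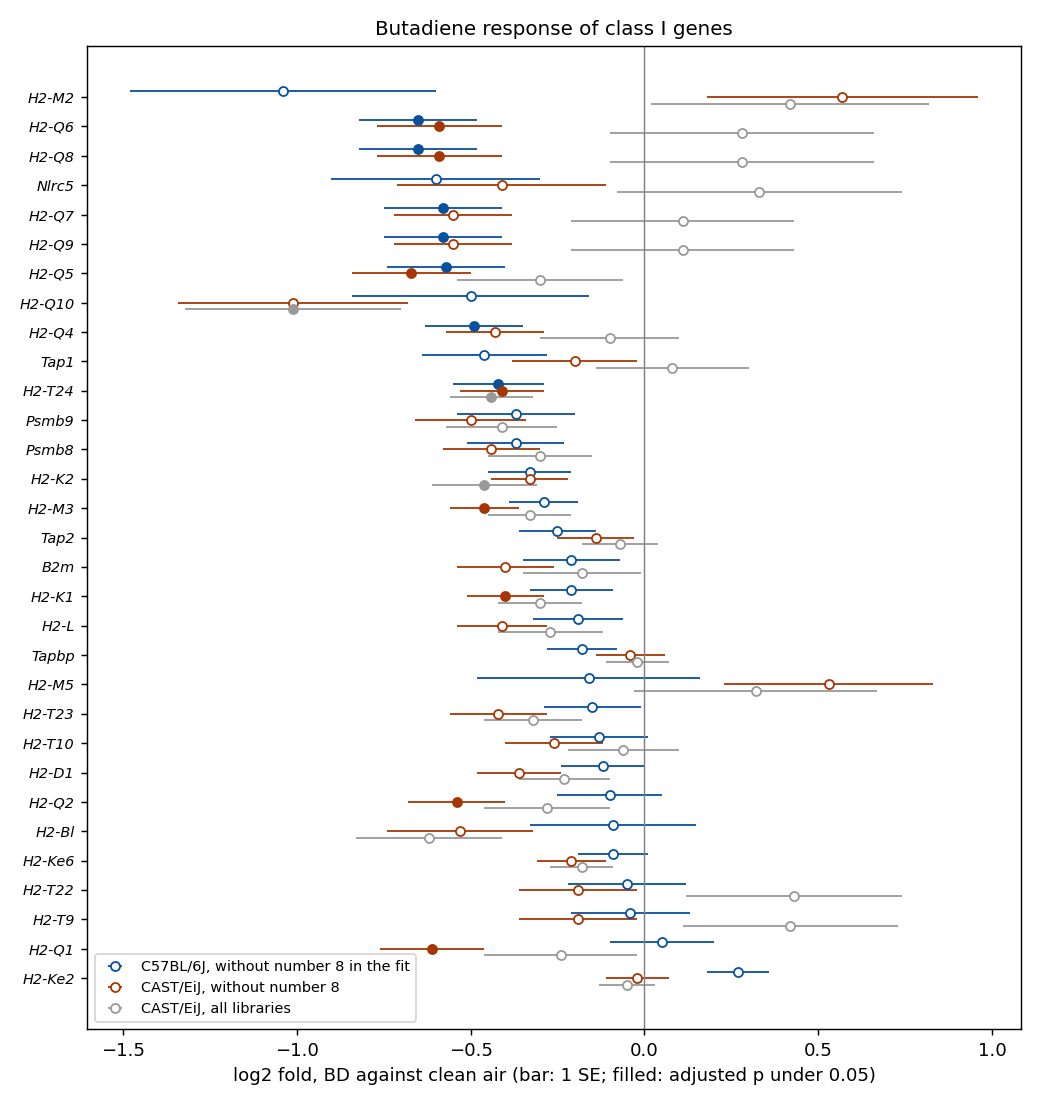
Log2 fold of BD against clean air for the 31 tested members, with bars of 1 SE and filled points at adjusted p under 0.05. Blue is C57BL/6J and brown CAST/EiJ, both from the model without number 8, and grey is CAST/EiJ with all libraries. Blue and brown points lie mostly left of 0, with H2-Q6 at -0.65 and -0.59, whereas grey H2-Q6 lies at 0.28.

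No member passed the test of whether the BD response differs between strains, with all libraries or without number 8 (edgeR quasi-likelihood interaction; 11.7% and 9.44% of all genes passed). With all libraries 2 members had an unadjusted p under 0.05, a count given without the share of all genes at that threshold. DESeq2 and limma-voom also called none. H2-Q1 came nearest without number 8, with a difference of -0.65 on the log2 scale (SE 0.21, edgeR adjusted p = 0.0535). DESeq2 without number 8 called it (adjusted p = 0.0272), as did the edgeR fit without number 8 and clean-air C57BL/6J replicate 1 (0.0193). For H2-K1 the difference was -0.20 (SE 0.16), for B2m -0.19 (SE 0.20), for H2-Q7 0.03 (SE 0.24) and for Nlrc5 0.20 (SE 0.42) without number 8. Without numbers 8 and 1 the difference of Nlrc5 was 0.64 (SE 0.24, edgeR adjusted p = 0.0628). A p above the threshold does not show that the strains respond alike.

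The genes around the members went in different directions between the strains. Of 17 receptor genes of CD8 T and NK cells, 16 were lower in clean-air CAST/EiJ and 1 higher, with a median log2 fold of -2.38. Of all genes 30.4% were lower and 28.9% higher in this comparison, which holds for the lists that follow. Klrk1, which encodes the activating receptor NKG2D, was at 13.5 ± 3.77 CPM (SD, n = 5) in C57BL/6J and 1.29 ± 0.353 CPM (SD, n = 7) in CAST/EiJ (log2 fold -3.39, edgeR adjusted p = 3.95e-05). Cd8a was lower by a log2 fold of -2.45, and the receptor that was higher was Klra2 (0.97). The NK receptor genes of the Ly49 and NKG2 families are also polymorphic and similar to each other, and the alignment to a C57BL/6J genome touches them likewise. Of 20 tested regulators of class I transcription and interferon signalling, 14 were lower and 2 higher in clean-air CAST/EiJ (median -0.45), among them Irf1 (-0.40), Irf8 (-1.53) and Irf2 (-1.04).

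The constitutive proteasome went the other way: 12 of 14 subunits were higher in clean-air CAST/EiJ and none lower (median 0.46). Psmb1 was at 82.3 ± 15.5 CPM (SD, n = 5) in C57BL/6J and 165 ± 18.2 CPM (SD, n = 7) in CAST/EiJ (log2 fold 1.01), and Psmb5, whose place in the immunoproteasome Psmb8 takes, was higher by a log2 fold of 0.44 (edgeR adjusted p = 0.0125). Psmb10, the immunoproteasome subunit encoded outside the H2 region, did not pass (-0.06, adjusted p = 0.66). Of 16 peptide loading and trimming genes 5 were higher, a share near the 28.9% of all genes, and 1 was lower, with the chaperone calreticulin (Calr) higher by 0.51 and the aminopeptidase Lap3 by 0.96. Among 15 tested class I-like genes outside the H2 region 6 were lower and 2 higher, including Cd1d1, which presents lipids to NKT cells (-0.99), and the endothelial protein C receptor Procr (1.27).

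Under BD in C57BL/6J, with all libraries, 3 of 20 regulators fell (Socs1 by 1.00, Irf2 by 0.60 and Rela by 0.43 on the log2 scale) and none rose, where 4.66% of all genes fell and 2.82% rose. Irf1 (-0.19, edgeR adjusted p = 0.285) did not pass. Without number 8, 5 regulators fell and none rose (6.49% and 4.2% of all genes). No constitutive proteasome subunit passed in C57BL/6J. In CAST/EiJ 5 of 14 constitutive subunits fell with all libraries (6.36% of all genes) and none without number 8 (3.37%), and the interaction of strain and BD passed for 7 subunits with all libraries (11.7% of all genes) and 4 without number 8 (9.44%), all with a lower fold in CAST/EiJ. Psmb10 fell by 0.50 in CAST/EiJ (edgeR adjusted p = 0.00904 with all libraries and 0.0147 without number 8).

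In clean air, markers of leukocytes differed between the strains too, T, NK and B cell markers in the direction of most members. Alveolar macrophage markers went mostly against it. Under BD no B cell marker passed between the strains (median log2 fold -0.01 with all libraries and -0.30 without number 8). For BD against clean air in CAST/EiJ, no T, NK or B cell marker of these lists passed, with number 8 or without it. The summed level of 8 T and NK cell markers was 41.3 to 61.1 CPM in clean-air C57BL/6J, 25 to 43.6 CPM in C57BL/6J BD, 9.15 to 17.4 CPM in clean-air CAST/EiJ and 8.33 to 17.6 CPM in CAST/EiJ BD without number 8, which itself stood at 41.5 CPM. In the strain comparison in clean air 7 of these 8 markers were lower in CAST/EiJ. The 5 B cell markers summed to 123 to 226 CPM in clean-air C57BL/6J and 39.8 to 111 CPM under BD, where 5 of 5 fell (median log2 fold -1.50). In CAST/EiJ they summed to 22.2 to 91 CPM in clean air and 28.5 to 70 CPM under BD without number 8. The 6 dendritic cell markers summed to 199 to 235 CPM in clean-air C57BL/6J, 159 to 208 CPM in C57BL/6J BD, 171 to 211 CPM in clean-air CAST/EiJ and 181 to 277 CPM in CAST/EiJ BD without number 8. The 5 alveolar macrophage markers summed to 590 to 760 CPM in clean-air C57BL/6J, 751 to 954 CPM in C57BL/6J BD, 1718 to 3850 CPM in clean-air CAST/EiJ and 2113 to 4616 CPM in CAST/EiJ BD without number 8 (880 CPM in number 8). In clean-air CAST/EiJ 3 of these 5 were higher and 1 lower. The 5 endothelial markers summed to 2637 to 2862 CPM in clean-air C57BL/6J, 1943 to 2525 CPM in C57BL/6J BD and 1799 to 2484 CPM in clean-air CAST/EiJ. In CAST/EiJ BD without number 8 they summed to 1791 to 2061 CPM. Between the strains in clean air 2 of the 5 endothelial markers were lower in CAST/EiJ and 1 higher. Of the 6 dendritic cell markers 4 were lower there and 1 higher. No marker of these lists was at 0 in a whole group. In bulk tissue fewer cells of a type and less RNA per cell cannot be told apart, and the part of the leukocyte and endothelial levels in the class I values was not tested. Clean-air C57BL/6J replicate 1, the one with a title number over 100 and with the highest B2m, H2-K1 and H2-D1 of its group, also held squamous epithelial markers that summed to 1576 CPM, against at most 4.23 CPM in the other 4. In the other groups these markers reached 1123 CPM (C57BL/6J BD), 2110 CPM (CAST/EiJ clean air) and 2273 CPM (CAST/EiJ BD), and their part was not tested either.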

How the data were processed

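RNA-seq counts per gene symbol in 24 lung libraries were used. The series held 68 samples; the 20 small RNA and 24 ATAC samples were not used here. The authors deposited the counts as one table made from reads aligned with GSNAP to mm9, per the submitters' processing notes. The version, counting tool, annotation, strand setting and treatment of reads with several matches are not given in the sources used here. Columns were matched to samples by title, and 21 entries without a value in CAST/EiJ columns were left out.

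From these counts, edgeR 4.0.16 (R 4.3.3; filterByExpr, TMM, robust quasi-likelihood) was fitted with 1 mean per group over all 24 libraries, and p was adjusted by Benjamini-Hochberg over all 17371 genes. Standard errors are the absolute log2 fold over the root of F. CPM used TMM library sizes. Alternatives used DESeq2 1.42.0, limma-voom 3.58.1, other factors, no filter, only the groups compared, each library left out, and the title numbers over 100. The test was checked on simulated counts. Members described in full were those called in at least 1 comparison and reaching 1 CPM in some group mean, plus H2-K1, H2-D1, B2m and the named pathway genes. From other lists at most 3 called genes per direction were named, plus Irf1, Psmb10, Psmb5, Calr and Cd8a; 1 other gene of that rule is not reported here. Members and lists were chosen with earlier results of these data known. RefSeq symbols matched 38 members.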

Additional observations from a re-analysis of the deposited data

Results flagged for a closer look

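In 24 groups of values, 1 library lay far from the rest of its group by Dixon's 95% criterion. Chance marks about 1 in 20 groups, or 5.2 of those checked, and entries that share reads are marked together.

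Library number 8, labelled CAST/EiJ BD, held most of them. Among the light chain and heavy chains, B2m stood at 759 CPM against 318 to 439 CPM in the other 5, H2-L at 422 (236 to 299), H2-M3 at 16.9 (9.81 to 11.8), H2-T10 at 20.3 (9.54 to 11.3) and H2-T22 at 70.1 (14.7 to 18.1). In the Q region H2-Q1 stood at 56 CPM (18.4 to 24.8), H2-Q2 at 46.7 (19.1 to 24.8), H2-Q4 at 149 (51 to 68.9), H2-Q5 at 15.6 (4.62 to 6.7), H2-Q6 at 47.5 (6.71 to 8.62) and H2-Q7 at 57.7 (11.7 to 13.8). Nlrc5 stood at 55.1 CPM (7.82 to 15.6) and Tap1 at 50.2 (15.4 to 26.6).

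In clean-air CAST/EiJ, number 1 stood at 753 CPM for B2m against 408 to 505 CPM in the other 6, 34.7 for H2-T22 (13.8 to 18.9), 81.9 for H2-T24 (41.6 to 55.3), 37.6 for Nlrc5 (8.13 to 13.4) and 14.4 for H2-Ke2 (18.3 to 21.1). Number 2 stood at 257 CPM for H2-L (335 to 382) and 21.3 for H2-Q10 (4.69 to 9.33), and replicate 1 at 13.3 for H2-Bl (5.02 to 8.3). In C57BL/6J BD, H2-K2 was at 12.1 CPM in number 18 (7.73 to 9.25), H2-Q2 at 9.12 in number 15 (5.48 to 6.71) and Psmb8 at 34.3 in number 16 (45.8 to 51.9).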

How the results depend on the processing

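Of 26 members called between the strains in clean air, 12 were called under all 35 alternatives, and of 24 under BD, 21 under all 36. The 26 became 13 without the numbers over 100, where Nlrc5 moved from -2.22 to -1.46 on the log2 scale. For BD in C57BL/6J, 1 member was called with all libraries. It was 0 without the filter or without the numbers over 100, 2 with DESeq2, with the number series as a covariate or without the numbers over 100 and number 8, 7 with only the groups compared, and 0 to 7 when single libraries were left out. Without number 8 it was 11 with the covariate, 9 with DESeq2, 6 without clean-air C57BL/6J replicate 1 and 11 without number 1. For BD in CAST/EiJ, 3 members were called. It was 5 with DESeq2, 0 with only the groups compared, 1 without the numbers over 100 or with the covariate, and 1 to 8 when single libraries were left out. Without number 8 it was 19 with DESeq2 (6.65% of all genes fell), 15 without clean-air C57BL/6J replicate 1 (5.35%) and 9 without number 1. The share of all genes that passed also moved between fits and is not given for each one in this section. These counts alone therefore do not set class I genes apart from other genes. The interaction had 0, 0 to 1 when single libraries were left out (1 without CAST/EiJ clean-air replicate 6), and, without number 8, 1 with DESeq2, 1 without clean-air C57BL/6J replicate 1 and 3 without number 1. H2-Q6 and H2-Q8 under BD in CAST/EiJ turned from 0.28 to -0.59 without number 8, also with DESeq2 (-0.59) and without clean-air C57BL/6J replicate 1 (-0.59), and to -0.55 without number 1 as well. With single libraries left out it ran from -0.59 to 0.43. The cause of these changes was not tested. The fits that left out number 8 together with another library, or with DESeq2 or limma-voom, were chosen after seeing the data. No paired analysis was possible because the groups compared share no title number. The 10 members below the filter, with at most 26 counts in a library, were too shallow for a comparison.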
